A study of Mus musculus with 15 samples.

Results

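Nuclear receptors are transcription factors that mostly bind small fat-soluble ligands and, through a shared zinc finger domain, DNA. The genes described here are 45 members of this family in the mouse, Pgr among them, and all 45 were matched by symbol and Ensembl identifier to rows of a table of 55471 genes. The NR3 class holds the steroid receptors for estrogen, progesterone, glucocorticoid and mineralocorticoid. The NR1 class holds receptors for thyroid hormone, retinoic acid, vitamin D, fatty acids and oxysterols, most of which pair with a retinoid X receptor, and the clock repressors of the REV-ERB type. Receptors of the NR2 and NR4 classes are mostly orphans, without an agreed ligand. In mesenchymal and bone stromal cells, estrogen, glucocorticoid, vitamin D and retinoid receptors are known as regulators of bone formation and differentiation.

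The libraries, 15 in all and made from poly(A) RNA of mouse cells, came from 2 experiments that ran on different flowcells. Each carries the cell type label MSCLCs, an undefined abbreviation, and YAP1, the fusion EWS::FLI1, IGF-1 and mesenchymal stem cells of bone are the subjects in the title of the series. In experiment 1, libraries 202, 234 and 237 had the genotype MSC (wild type, WT, in the design text), 3 in number, and 4 libraries had the genotype EFPrx1MSCLC, here EF: 219, 221, 225 and 229. Experiment 2 held 2 libraries of the genotype EF (221-1 and 221-2), 2 of ha (T1 and T2) and 4 of hr (uns-1-1, uns-1-2, uns-2-1 and uns-2-2), which the design text calls EFPrx1, ha-EFPrx1 and hr-EFPrx1. The number 221 is in every title of experiment 2, so these groups share it with 1 EF library of experiment 1. The labels leave unsaid what EF, Prx1, ha and hr stand for, how the fusion is expressed, and the age and number of animals. Since they tie no library to a separate culture or animal, p-values here reflect library-to-library spread alone, and that spread may be technical. No test was made between the experiments, because experiment and flowcell cannot be told apart.

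Total expected counts ran from 14906180 to 26833876 per library in experiment 1 and from 11195371 to 16378368 in experiment 2. Some libraries were very close: EF 221-1 and EF 221-2 differed 1.36 times as much as sampling noise (the median over genes), and the hr pairs uns-1-1 with uns-1-2 and uns-2-1 with uns-2-2 differed 1.31 and 1.29 times as much. All other pairs within a group differed 7.15 to 102 times as much. The 15 mesenchymal stromal marker genes fixed for this work summed to at least 4206 CPM (counts scaled to the library total) in every library. The 18 hematopoietic markers (blood and myeloid cell genes) summed to 11410 to 31460 CPM in WT, 68.65 to 521 CPM in EF of experiment 1, and no library of experiment 2 exceeded 65.45 CPM. Transcripts of the Y-linked gene Ddx3y were at 97.7 and 48.7 CPM in WT 202 and WT 234, and no other library, WT 237 included, exceeded 0.144 CPM. Ddx3y thus set WT 202 and WT 234 apart from every EF library, and the part of sex in EF against WT was not tested.

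Levels below are CPM normalised by TMM factors within an experiment, and differences are log2 fold changes ± SE from edgeR fits. A gene was called when its Benjamini-Hochberg adjusted p over all genes tested was under 0.05. Of the 45 receptor genes, 30 reached 1 CPM in some library, and 15 reached at least 10 CPM in every library. Those 15 were Nr3c1, Esrra, Rara, Rarg, Rxra, Rxrb, Thra, Ppard, Nr1d1, Nr1d2, Nr1h2, Nr2c1, Nr2c2, Nr2f2 and Nr2f6. The remaining 15 stayed below 1 CPM everywhere: Esrrb, Esrrg, Rxrg, Nr1h4, Nr1i2, Nr1i3, Rorb, Nr2e1, Nr2e3, Hnf4a, Hnf4g, Nr5a1, Nr5a2, Nr0b1 and Nr0b2. They include the bile acid and xenobiotic receptors of liver and the steroidogenic factors of gonad and adrenal, and 3 of them (Nr2e3, Hnf4g and Nr0b2) had no count in any library. None of these 15 passed the filter on low counts in either experiment.

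**Figure D1:**
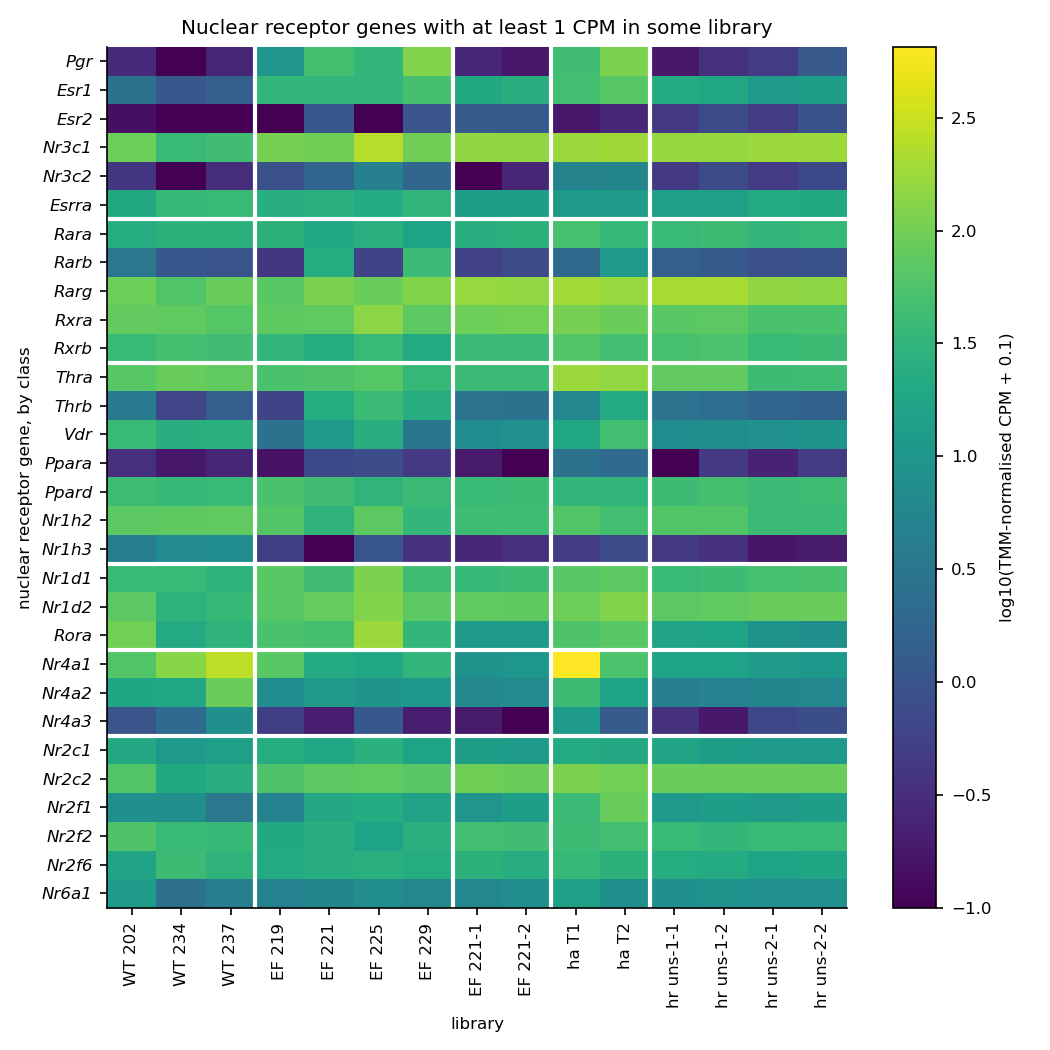
Level of the 30 receptor genes that reached 1 CPM in some library, one row per gene, one column per library, grouped by experiment and genotype, coloured by log10 of the TMM-normalised CPM plus 0.1. Pgr is dark in the 3 WT, both EF libraries of experiment 2 and most hr libraries, and bright in the 4 EF libraries of experiment 1 and both ha libraries, while Nr3c1, Rarg and Rxra are bright in every column.

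Divided by exonic length, so that genes can be compared, the retinoic acid receptor gene Rarg had the highest mean level of the family in EF of experiment 1 (23.1 CPM per kb), EF of experiment 2 (37.4 CPM per kb) and hr (41.2 CPM per kb). In WT it ranked below Nr4a1 and Nr1h2 at 18.7 CPM per kb, and in ha below Nr4a1 at 42.1 CPM per kb. Nr4a1 itself, an immediate early gene, averaged 44 CPM per kb in WT and 100.2 CPM per kb in ha, but its libraries were far apart in both groups. No call involved Rarg: its normalised CPM lay between 58.9 and 203 in all 15 libraries, and its groups overlapped in EF against WT, hr against EF and hr against ha. The glucocorticoid receptor gene Nr3c1 was the next highest per kb in EF of experiment 2 (19.5 CPM per kb) and in hr (22 CPM per kb).

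The 3 members called higher in EF than in WT were all steroid receptors of the NR3 class. Pgr, which encodes the progesterone receptor, was at 0.18, 0 and 0.144 CPM in WT 202, 234 and 237. In EF 219, 221, 225 and 229 it was at 9.63, 48.9, 33.1 and 122 CPM. All EF libraries lay above all WT libraries, with a 12.7-fold range among the EF libraries themselves, and the difference was 8.75 ± 1.24 (log2, edgeR adjusted p = 0.00463). Esr1, which encodes estrogen receptor alpha and is a known activator of Pgr transcription in reproductive tissue, was at 2.56, 0.984 and 1.37 CPM in WT. Its EF libraries were at 33.4, 33.8, 32.1 and 48.5 CPM, without overlap and close to each other, and the difference was 4.47 ± 0.43 (adjusted p = 0.00156). Nr3c2, which encodes the mineralocorticoid receptor, was at 0.315, 0 and 0.217 CPM in WT and at 0.769, 1.68, 4.55 and 1.74 CPM in EF. Its EF libraries again lay above WT, at low levels, and the difference was 3.50 ± 1.02 (adjusted p = 0.0492). That call was lost when any 1 of 6 libraries was left out (highest adjusted p 0.165), and it held only without EF 219. Esr1 and Pgr were called whichever library was left out. Nr3c1 was higher in every EF library (97.2 to 246 CPM) than in any WT library (36.7 to 91.9 CPM), but its difference of 1.25 ± 0.49 missed the threshold (adjusted p = 0.107).

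In experiment 2 Pgr, Esr1 and Nr3c2 were higher in ha than in EF and hr, whereas Nr3c1 and Esrra of the same class were not called and Esr2 was lower. Pgr was at 0.177 and 0.0798 CPM in EF 221-1 and 221-2, at 43.2 and 113 CPM in ha T1 and T2, and at 0.0843, 0.255, 0.357 and 1.07 CPM in the hr libraries. Both ha libraries lay above every EF and hr library, and EF and hr overlapped. The 2 EF libraries together held 3 Pgr counts, so the ratio of ha to EF was 650 with a 95% counting interval of 222 to 3150 (edgeR adjusted p = 0.000461). Pgr in hr was 7.47 ± 0.59 below ha (log2 difference -7.47, adjusted p = 0.000144), and hr against EF was not called (adjusted p = 0.47). Esr1 was at 20.5 and 24.4 CPM in EF, 45.6 and 67.1 CPM in ha, and 21.8, 19.1, 11.6 and 13.6 CPM in hr. Its ha libraries stood above all others at 1.33 ± 0.32 over EF (adjusted p = 0.0129), a call that was lost without EF 221-1, EF 221-2 or ha T2 and with close libraries summed (highest adjusted p 0.12), and hr was below ha with a difference of -1.77 ± 0.26 (adjusted p = 0.00195). For Nr3c2 the EF libraries were at 0 and 0.16 CPM (2 counts in all), ha at 5.05 and 5.30 CPM, and hr at 0.337, 0.681, 0.357 and 0.622 CPM. Only ha exceeded 1 CPM, at a ratio to EF of 61.8 with a 95% counting interval of 16.8 to 514 (adjusted p = 0.00119). Counting intervals cover counting error only. Exons of Nr3c2 overlap those of Gm10649 on the opposite strand over 247 bases, and the labels do not say whether reads were counted by strand.

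Esr2, which encodes estrogen receptor beta, went the other way at very low levels. It was at 1.15 and 1.12 CPM in EF, 0.0732 and 0.177 CPM in ha, and 0.337, 0.681, 0.357 and 0.8 CPM in hr. The ha libraries were the lowest of the 8 and did not overlap EF, at a difference of -3.05 ± 0.70 that rested on 4 counts in ha and 27 in EF (adjusted p = 0.0107). This call was lost without EF 221-1, EF 221-2 or ha T1. Nr3c1 was high throughout experiment 2 (149 to 183 CPM in the 8 libraries) and was called in none of its 3 comparisons, and the same held for the estrogen-related receptor gene Esrra (11.7 to 21.5 CPM). The plot of the steroid receptor genes shows these values.

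**Figure D2:**
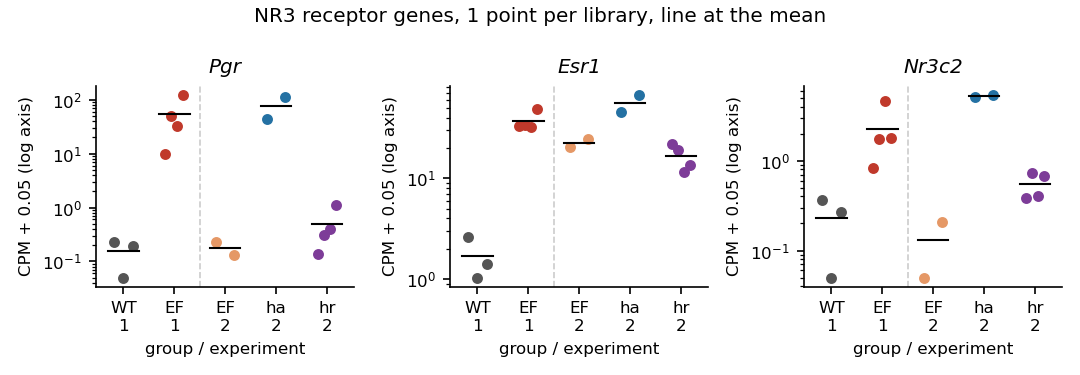
Normalised CPM plus 0.05 on a log axis for Pgr, Esr1 and Nr3c2, one point per library, with a line at the group mean; the number under each group is the experiment and the dashed line separates the experiments. For all 3 genes the 4 EF libraries of experiment 1 lie above the 3 WT libraries, and the 2 ha libraries lie above the EF and hr libraries of experiment 2.

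The promoter windows of these 3 genes are shown because the genes were called higher in both EF against WT and ha against EF. RefSeq windows of 300 bases, from 250 bases before to 50 bases after an annotated transcript start, were given for 41 of the 45 genes on GRCm38.p6, and none was used for Nr5a1, Nr3c1, Thra or Hnf4g. Capitals mark GGAA or its reverse complement TTCC, the core motif of ETS factors, the family of the FLI1 moiety of the fusion. The windows run 5′ to 3′ on the plus strand of the genome: Pgr at chr9:8899583-8899882, the first of 2 Esr1 windows at chr10:4611739-4612038, and Nr3c2 at chr8:76902080-76902379.
Pgr: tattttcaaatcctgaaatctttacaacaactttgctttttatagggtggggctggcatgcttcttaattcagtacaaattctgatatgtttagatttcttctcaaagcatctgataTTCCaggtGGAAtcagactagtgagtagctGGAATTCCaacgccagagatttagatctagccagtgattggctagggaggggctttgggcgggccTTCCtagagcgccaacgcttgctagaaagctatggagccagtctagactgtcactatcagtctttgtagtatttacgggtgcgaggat
Esr1: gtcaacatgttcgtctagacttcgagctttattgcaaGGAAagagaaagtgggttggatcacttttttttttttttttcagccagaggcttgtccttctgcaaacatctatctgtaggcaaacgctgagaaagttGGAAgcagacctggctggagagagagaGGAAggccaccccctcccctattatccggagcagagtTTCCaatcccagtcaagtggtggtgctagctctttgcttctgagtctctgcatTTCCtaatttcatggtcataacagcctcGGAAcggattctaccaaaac
Nr3c2: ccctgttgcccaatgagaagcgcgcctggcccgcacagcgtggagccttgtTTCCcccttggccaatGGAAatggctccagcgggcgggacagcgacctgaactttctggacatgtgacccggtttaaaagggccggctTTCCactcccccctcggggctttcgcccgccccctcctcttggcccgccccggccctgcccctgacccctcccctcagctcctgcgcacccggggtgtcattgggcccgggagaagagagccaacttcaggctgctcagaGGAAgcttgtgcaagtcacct
Pgr held 5 matches, at positions -133, -125, -103, -99 and -38 from the start site, of which the pair at -103 and -99 is adjacent and inverted. The Esr1 window held 6 matches, its other window at chr10:4709908-4710207 held 2, and the Nr3c2 window held 4. Such matches are common: 96% of the 32851 windows in the table held at least 1, the median was 3, and 46.3% held 4 or more. None of these windows held AGGTCA (the core of many nuclear receptor sites), AGAACA (the core of glucocorticoid and progesterone receptor sites) or CACGTG (the E-box bound by clock factors), on either strand. Those motifs were in 16.3%, 19% and 7.15% of all windows. A match is a description of the letters and does not show binding.

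Of the 28 receptor genes tested in EF against WT, 3 were called higher (Pgr, Esr1 and Nr3c2), 4 lower and 21 neither. That is 25% of the tested members, beside 19.8% of all 14596 genes tested, and 7.7% of all genes were called higher and 12.1% lower. The median difference of the tested members was 0.22 on the log2 scale, beside 0.04 over all genes, and 9 members had groups that did not overlap, as did 34.5% of all genes. Only Pgr and Esr1 kept their call in all 12 alternative analyses, and the number called fell to 2 without EF 229 or WT 237 and to 3 without EF 221 or WT 234. The share of all genes called also fell, to 11.1% without EF 229 and 8.03% without WT 237. It was 11.8% without EF 221 and 8.38% without WT 234.

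The 4 members called lower were an oxysterol receptor, 2 immediate early receptors and an orphan. Nr1h3 encodes LXR alpha, an oxysterol receptor abundant in macrophages. It was at 4.05, 6.81 and 7 CPM in WT and at 0.41, 0, 0.962 and 0.243 CPM in EF. Every EF library was below 1 CPM and every WT library above 4 CPM, a difference of -3.90 ± 1.03 (edgeR adjusted p = 0.0366). Nr4a2, an immediate early gene also called Nurr1, was at 18, 18.5 and 90.8 CPM in WT and at 6.97, 11.7, 9.23 and 10.1 CPM in EF. The groups did not overlap, and the difference was -2.16 ± 0.60 (adjusted p = 0.0427). WT 237 stood far above the other WT libraries, and without it the gene was not called. Its relative Nr4a1 was at 58.9, 137 and 267 CPM in WT and at 68.2, 22.3, 18.6 and 32.7 CPM in EF. Here EF 219 overlapped WT 202, with a difference of -2.12 ± 0.61 (adjusted p = 0.0472). Nr2f2, which encodes COUP-TFII, a mesenchymal and venous regulator, was at 58.1, 38.6 and 35.9 CPM in WT and at 20.8, 25.8, 16.0 and 26.7 CPM in EF. Its EF libraries were all lower, by a difference of -0.99 ± 0.28 (adjusted p = 0.0446). Each of these 4 calls was lost when certain single libraries were left out. The number of such libraries was 4 of 7 for Nr1h3, 5 for Nr4a1, 5 for Nr4a2 and 6 for Nr2f2.

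Blood cell markers moved with this comparison: 17 of the 18 hematopoietic markers were called lower in EF, their summed level was 11410 to 31460 CPM in WT against 68.65 to 521 CPM in EF, and none of the 18 was at 0 in any WT library. Their part in the lower level of Nr1h3, Nr4a1, Nr4a2 and Nr2f2 was not tested. In these bulk libraries, fewer cells of a type and less RNA per cell cannot be told apart.

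**Figure D3:**
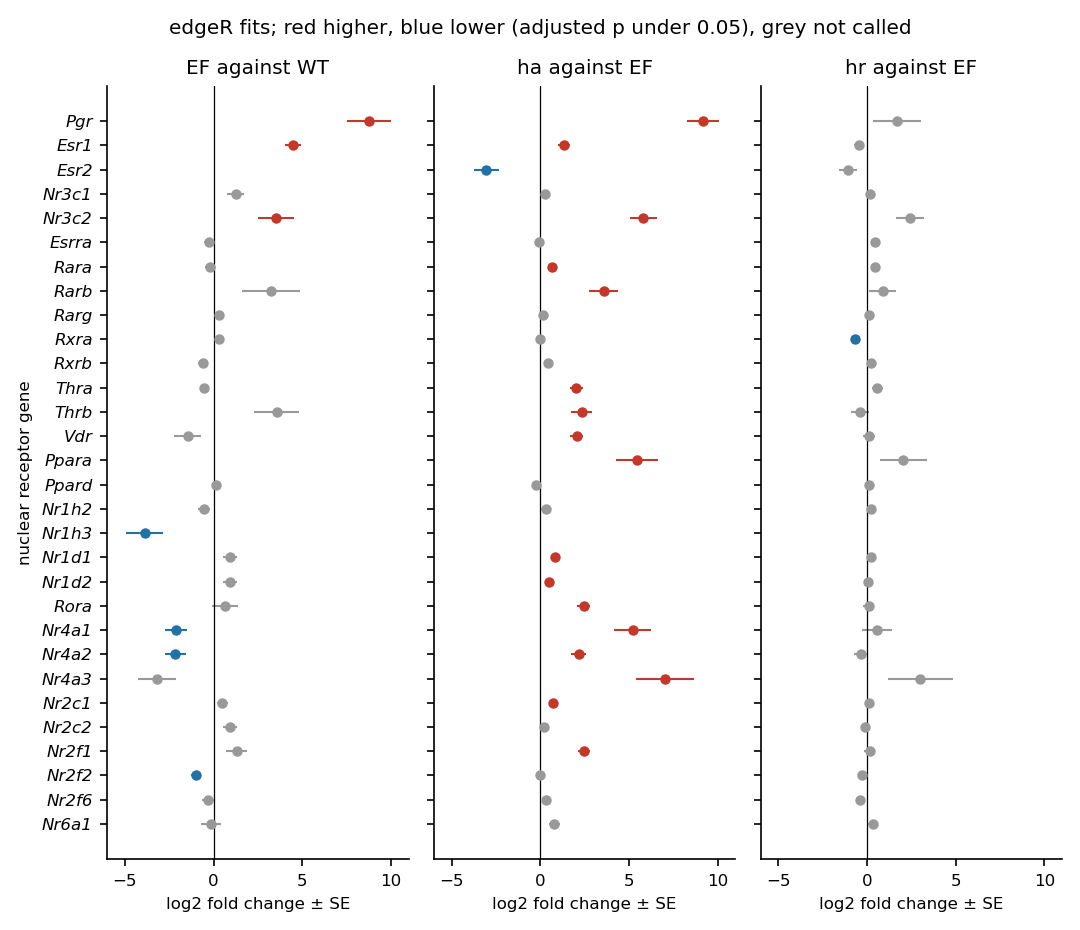
Log2 fold change ± SE from edgeR for every tested receptor gene in EF against WT (experiment 1), ha against EF and hr against EF (experiment 2), red where called higher, blue where called lower and grey where not called. In ha against EF 17 points are red and 1 blue, in EF against WT 3 are red and 4 blue, and in hr against EF 1 is blue.

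In ha against EF, 17 of the 29 receptor genes tested were called higher, 1 lower and 11 neither. That is 62.1% of the tested members beside 42.6% of all 13998 genes tested, and 58.6% called higher beside 23% of all genes, whereas 19.6% of all genes were called lower. The median difference of the tested members was 0.79 on the log2 scale against 0.05 over all genes, and 27 members had groups that did not overlap, as did 75.8% of all genes. The count depends on the EF pair that differed little beyond sampling noise. It fell without EF 221-1 or without EF 221-2, which leaves EF with 1 library, and the share of all genes called fell as well. With close libraries summed into 1, it was 2 (Pgr and Nr3c2), and 4.61% of all genes were called. Cell type markers moved as well: the 15 mesenchymal stromal markers summed to 18450 and 18630 CPM in ha against 10020 to 10110 CPM in EF, with 7 of 15 called higher and 1 lower. The 11 epithelial markers summed to 0.73 to 0.98 CPM in ha, 14.1 to 16.2 CPM in EF and 39.6 to 54.0 CPM in hr, with all 3 that were tested called lower in ha against EF. The part of these markers in the receptor values was not tested.

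Thyroid hormone and vitamin D receptors were among the genes called higher in ha. Thra, the main thyroid hormone receptor gene of bone, was at 40.1 and 40.2 CPM in EF, 174 and 155 CPM in ha, and 77.9, 79.3, 40.5 and 42.0 CPM in hr. The ha libraries stood above all others at 2.04 ± 0.36 over EF (edgeR adjusted p = 0.00375), and the mean of the hr libraries uns-1 was 1.91 times that of uns-2. Thrb, the other thyroid hormone receptor gene, was at 2.75 and 2.55 CPM in EF, 5.71 and 21.0 CPM in ha, and 2.70, 2.30, 1.64 and 1.42 CPM in hr. It was higher in both ha libraries, which were themselves far apart, at 2.33 ± 0.60 over EF (adjusted p = 0.0167). The Thrb call held in 10 of 16 alternative analyses. Vdr, which encodes the vitamin D receptor of bone and gut, was at 7.01 and 8.38 CPM in EF, 18.4 and 45 CPM in ha, and 7.08, 7.92, 8.42 and 9.42 CPM in hr. EF and hr overlapped, and ha was above both, at 2.04 ± 0.39 over EF (adjusted p = 0.00509).

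Of the retinoid receptor genes tested, Rarb and Rara were called in ha against EF. Rarb, a retinoic acid receptor gene that is itself induced by retinoic acid, was at 0.444 and 0.639 CPM in EF, 1.98 and 11.1 CPM in ha, and 1.35, 1.11, 0.785 and 0.8 CPM in hr. It was called higher in ha at 3.57 ± 0.82 (edgeR adjusted p = 0.0108), and its ha libraries differed 5.61-fold. Rara was called higher in ha by 0.69 ± 0.19 (adjusted p = 0.0204), while Rarg, Rxra and Rxrb were not called in ha against EF. The Rarb call held in 10 of 15 alternative analyses and the Rara call in 11 of 16. Rarb exons overlap those of Top2b on the opposite strand over 1793 bases, and the labels do not say whether reads were counted by strand.

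Clock-linked receptors rose with them. Rora, a clock activator, was at 11.4 and 12 CPM in EF, 57.9 and 69.1 CPM in ha, and 16.7, 16.4, 8.99 and 7.73 CPM in hr. The ha libraries did not overlap the others, at 2.44 ± 0.38 over EF (edgeR adjusted p = 0.00242). Nr1d1, which encodes the clock repressor REV-ERB alpha, was at 36.2 and 40.8 CPM in EF, 66.9 and 70.9 CPM in ha, and 38.6, 40.3, 50.3 and 52.2 CPM in hr. Its ha libraries were the highest, by 0.84 ± 0.17 over EF (adjusted p = 0.00638). Nr1d1 and Thra share 263 exonic bases on opposite strands, so reads there may not have been separated. Nr1d2 rose by 0.51 ± 0.16 (adjusted p = 0.0367), a call that held in 9 of 16 alternative analyses.

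The NR4 genes, which respond to growth factors and stress within minutes to hours, were higher in ha with a wide spread. Nr4a1 was at 8.69 and 10.1 CPM in EF, 650 and 53.1 CPM in ha T1 and T2, and 16.4, 16.3, 12.5 and 10.8 CPM in hr. The T1 library held 12.2 times the level of T2, and both exceeded every EF and hr library, at 5.22 ± 1.05 over EF (edgeR adjusted p = 0.00616). Nr4a2 was at 6.03 and 6.71 CPM in EF, 41.6 and 15.9 CPM in ha, and 4.13, 4.85, 5.14 and 5.77 CPM in hr. Again T1 was the higher ha library, and the difference from EF was 2.17 ± 0.42 (adjusted p = 0.0053). Nr4a3 followed the same order at lower levels, 12.4 and 1.18 CPM in ha against 1 count in the 2 EF libraries, a ratio of 147 with a 95% counting interval of 26 to 5830 (adjusted p = 0.0114). The Nr4a3 call held in 11 of 15 alternative analyses.

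Among the other receptors, Nr2f1, which encodes the orphan receptor COUP-TFI, was at 9.58 and 13.0 CPM in EF, 39.4 and 84.6 CPM in ha, and 11, 13.5, 12.2 and 13.2 CPM in hr. EF and hr overlapped, and ha was above both at 2.45 ± 0.35 over EF (edgeR adjusted p = 0.00163). Its close relative Nr2f2 was not called, with 41.5 and 47.6 CPM in ha against 46.0 and 43.3 CPM in EF. Exons of Nr2f1 and Nr2f2 overlap exons on the opposite strand over 123 and 643 bases, so reads there may not have been separated. Ppara, a fatty acid receptor gene, was at 0.0887 and 0 CPM in EF (1 count), 2.56 and 2.06 CPM in ha, and 0, 0.34, 0.143 and 0.355 CPM in hr. Only ha exceeded 1 CPM, with a ratio to EF of 54.4 and a 95% counting interval of 9.44 to 2180 (adjusted p = 0.00835). Nr2c1, an orphan, was called higher by 0.74 ± 0.20, a call that held in 12 of 16 alternative analyses. Esrra, Ppard, Nr1h2, Nr2c2, Nr2f6 and Nr6a1 were not called in ha against EF.

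**Figure D4:**
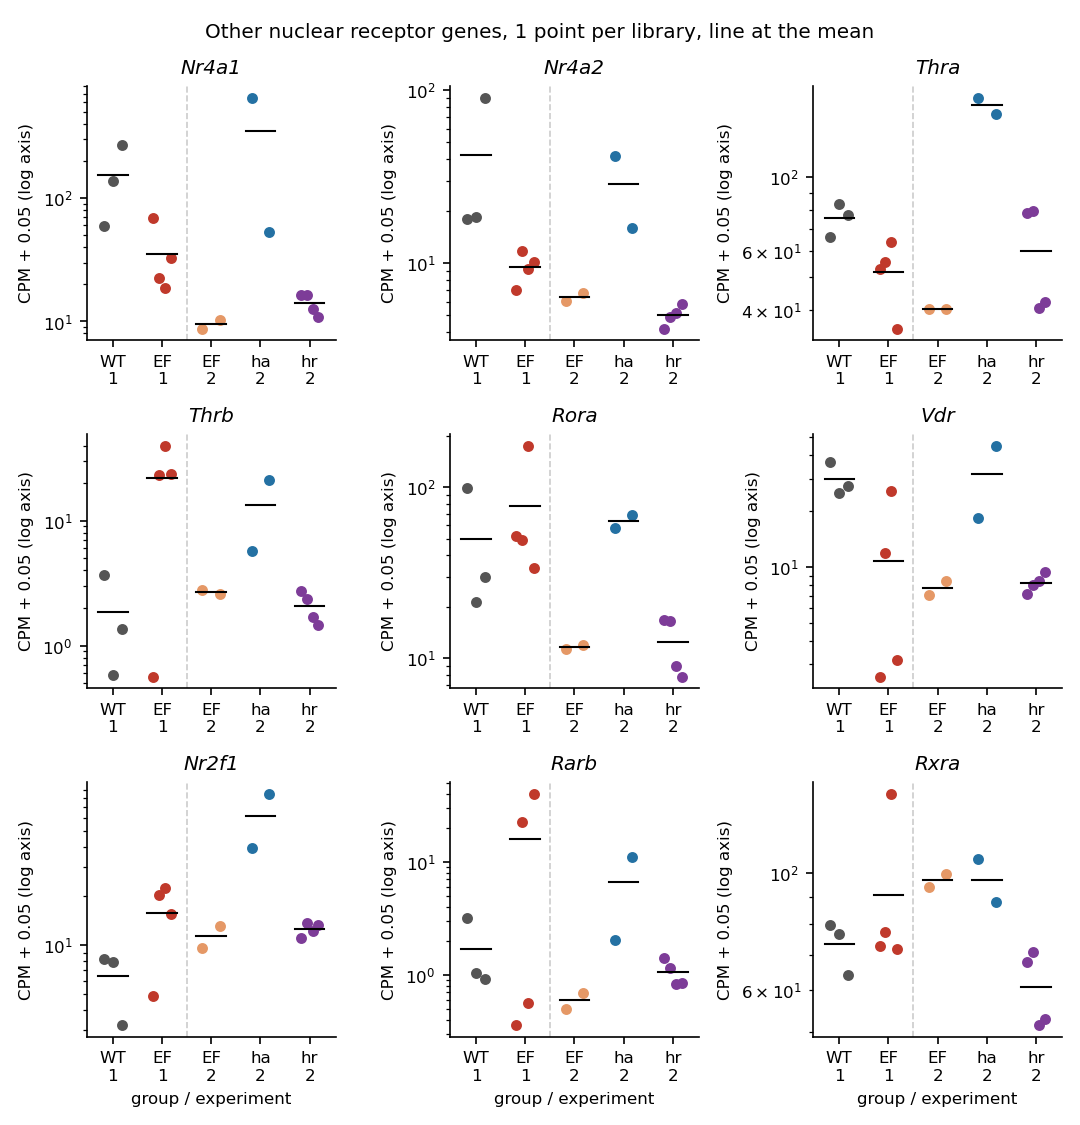
Normalised CPM plus 0.05 on a log axis for 9 further receptor genes, one point per library, with a line at the group mean; the number under each group is the experiment and the dashed line separates the experiments. Thra, Rora, Vdr and Nr2f1 lie higher in both ha libraries than in every EF and hr library of experiment 2, Nr4a1 has 1 ha library at 650 CPM, and Rxra is lower in the 4 hr libraries than in EF and ha.

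Few receptor genes were called between hr and EF. Of 29 tested receptor genes, edgeR called 0 higher and 1 lower (2 and 2 at an unadjusted p under 0.05), 3.45% of members beside 6.95% of all genes, of which 3.88% were called higher and 3.07% lower. The gene called lower was Rxra, which encodes a shared partner of many NR1 receptors. It was at 94.1 and 99.7 CPM in EF, 106 and 88.0 CPM in ha, and 67.6, 70.9, 51.4 and 52.9 CPM in hr. All 4 hr libraries lay below EF and ha, at -0.68 ± 0.16 against EF (edgeR adjusted p = 0.0469), a call that was lost when any EF or hr library was left out. The share of all genes called fell in each of these runs as well, to between 2.4% and 2.72% when an hr library was left out. Limma-voom called 0 members in all, and DESeq2 called 1. The 14 members whose hr and EF libraries did not overlap made up a share near the 47% of all genes that did so. A call that misses the threshold does not show equal levels: Nr3c2 in hr had 5.84 times the level of EF with a counting interval of 1.45 to 51, without a call (adjusted p = 0.106).

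Against ha, 19 of 29 receptor genes were called lower in hr, 2 higher and 8 neither. That is 72.4% of tested members beside 39.4% of all genes, and 65.5% called lower beside 21.5%, with 17.9% of all genes called higher. Groups did not overlap for 23 members, as for 55.9% of all genes, and the median difference of members was -0.68 beside -0.0036 over all genes. The count was 14 to 20 when a library was left out, and 7 with close libraries summed: Pgr, Esr1, Nr3c2, Nr2f1, Rora, Nr4a2 and Ppara. The share of all genes called fell from 39.4% as well. It was 32.6% to 36.7% when an hr library was left out and 7.97% with close libraries summed. This comparison shares the ha libraries with ha against EF, so the 16 members called higher in ha against EF and lower here are not independent counts. Of the cell type markers, 8 of 15 mesenchymal stromal genes were lower in hr than in ha (summed 9103 to 9641 CPM against 18450 to 18630 CPM) and all 3 tested epithelial genes were higher; their part was not tested. Rora was lower in hr by a difference of -2.35 ± 0.30, Nr2f1 by -2.31 ± 0.28, Nr4a2 by -2.53 ± 0.34, Vdr by -1.95 ± 0.31, Thra by -1.46 ± 0.29 and Thrb by -2.73 ± 0.48. Rxra, Nr2c2 and Nr2f6 were also called lower in hr, by -0.68 ± 0.16, -0.30 ± 0.10 and -0.70 ± 0.18, without a call in ha against EF. Exons of Nr2c2 overlap exons on the opposite strand over up to 4590 bases, and those of Nr2f6 overlap Ocel1 over 1622 bases. The labels do not say whether reads there were counted by strand. Ppard, a fatty acid receptor gene, was 0.38 ± 0.11 higher in hr than in ha (adjusted p = 0.0316), and Esr2 was 1.99 ± 0.67 higher (adjusted p = 0.0475). When each of the 8 libraries was left out in turn, the Ppard call was lost 6 times and the Esr2 and Nr2c2 calls 7 times each. The Rxra and Nr2f6 calls were each lost 1 time.

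Proteins that carry, supply or oppose the receptors were counted from lists of textbook members. For these and the lists below, the share over all genes in EF against WT was 7.7% higher and 12.1% lower. In ha against EF that share was 23% higher and 19.6% lower. Of 13 coactivators, edgeR called 0 in EF against WT (5 were higher at an unadjusted p under 0.05). Coactivators had 4 higher and 2 lower of 14 in ha against EF. Ncoa1, a coactivator of steroid receptors, was 1.37 ± 0.21 higher in ha, and Pprc1 was 1.25 ± 0.22 lower (log2 difference -1.25). Corepressors had 1 gene higher of 11 in EF against WT (Lcorl) and 2 higher and 1 lower in ha against EF. Nrip1, which restrains estrogen receptor activity, was 1.38 ± 0.22 higher there. Receptor chaperones, the heat shock complex that holds steroid receptors ready for ligand, had 7 of 12 lower and 1 higher in ha against EF, beside 19.6% of all genes lower and 23% higher. Ptges3 differed by -0.91 ± 0.12, Fkbp5 by -1.28 ± 0.18 and Stip1 by -1.01 ± 0.15. In EF against WT 1 chaperone was higher and 1 lower.

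Genes that make or move retinoids were counted in EF against WT: edgeR called 6 of 10 tested lower and 0 higher (1 was higher at an unadjusted p under 0.05), beside 12.1% of all genes called lower. In the same comparison 17 of 18 hematopoietic markers were lower, whose part in this and the other lists was not tested. Crabp2, a retinoic acid carrier, averaged 0.256 CPM in EF and 170 CPM in WT, a difference of -9.32 ± 0.76. Aldh1a2, a retinoic acid synthase, differed by -8.71 ± 0.79. The same list had 5 of 8 higher and 1 lower in ha against EF. Dhrs3, a retinal reductase, rose by 4.19 ± 0.56, and Rdh10, a retinol dehydrogenase, by 2.75 ± 0.51. Stra6, a retinol transporter, had no count in the 2 EF libraries and 176 in ha, so it was at least 45.6-fold higher against a floor of 3 counts over the group. In experiment 1 Stra6 was at 1.13, 13.7, 0.385 and 27.1 CPM in EF 219, 221, 225 and 229, where Rarb was at 0.307, 22.6, 0.513 and 40.0 CPM. Both genes were high in EF 221 and EF 229 and low in EF 219 and EF 225, a pattern noticed after the values were seen. Their order differed in ha T1 and T2, with Stra6 at 7.39 and 4.42 CPM and Rarb at 1.98 and 11.1 CPM. Neither Rarb nor Thrb was called in EF against WT.

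Steroid, thyroid hormone and vitamin D metabolism had 7 of 16 genes lower in EF against WT (12.1% of all genes, and 17 of 18 hematopoietic markers), Cyp7b1 (an oxysterol hydroxylase) differing by -5.29 ± 0.48. Of 10 tested in ha against EF, 4 were higher. Dio2, which activates thyroid hormone, had 1 count in EF and 17.3 and 72.7 CPM in ha, a ratio with a counting interval of 205 to 45100. In hr, Dio2 had no count and was at least 782-fold lower than in ha, against the same floor. In experiment 2 Dio2 was highest in ha, where Thra and Thrb were also called higher. Its values in experiment 1 overlapped, at 12.6, 4.47 and 8.16 CPM in WT and 0.769, 6.71, 3.14 and 14.1 CPM in EF.

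Known target genes of the receptors were counted in the same way. Estrogen and progesterone receptor targets had 1 higher and 3 lower of 12 in EF against WT, and 4 higher and 2 lower of 10 in ha against EF. Greb1, a target of both receptors, rose by 6.33 ± 1.01 in EF against WT (edgeR adjusted p = 0.00677). It was at 1.49, 9.45, 6.86 and 17.1 CPM in EF 219, 221, 225 and 229, the same order of libraries as Pgr, whereas no WT library exceeded 0.144 CPM. That order was noticed after the values were seen, and Greb1 was the only target of this list called higher in EF against WT. In experiment 2 Greb1 was at 0.355 and 0.798 CPM in EF, 0.732 and 7.96 CPM in ha and at most 0.444 CPM in hr, and EF and ha overlapped. Igfbp4 was higher in ha than in EF by 2.60 ± 0.24, and Ccnd1, a cyclin, differed by -3.09 ± 0.46. Glucocorticoid receptor targets had 5 of 12 lower in EF against WT (12.1% of all genes), led by Lcn2, which myeloid cells also express, at -8.39 ± 0.96, beside 17 of 18 hematopoietic markers lower. In ha against EF they had 5 higher, among them Klf9 at 1.97 ± 0.16, and 2 lower, among them Fkbp5, of 11.

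LXR targets had 3 of 10 lower in EF against WT, Apoe at -8.05 ± 0.84, Smpdl3a at -7.56 ± 1.19 and Pltp at -2.54 ± 0.46, beside the lower Nr1h3; these genes are also expressed by macrophages, and the part of blood cells was not tested. Higher in ha against EF were 2 of 8 LXR targets (Abca1 at 2.63 ± 0.68 and Mylip at 1.99 ± 0.58). PPAR targets had 2 of 13 lower in EF against WT (Cd36 and Angptl4) and 4 higher and 1 lower of 12 in ha against EF. ERR targets, mostly mitochondrial enzymes, had 1 of 9 higher in EF against WT and 4 of 9 lower in ha against EF, Cs at -1.07 ± 0.12. Clock genes had 7 of 15 higher in ha against EF, beside 23% of all genes, led by Per1 at 1.55 ± 0.17, Npas2, at least 46.9-fold higher, and Hlf at 3.87 ± 0.67. In EF against WT 2 clock genes were higher and 3 lower. In hr against EF edgeR called 3.88% of all genes higher and 3.07% lower. There these lists held 3 PPAR targets higher (Plin2, Acaa2 and Cpt2), Igfbp4 and Klf9 higher and Ncoa6 lower, and none of their other genes was called. Of the cell type markers there, 2 of 3 tested epithelial genes were called higher. Lower were 1 of 4 hematopoietic and 1 of 15 mesenchymal stromal genes, and the part of these markers was not tested. In hr against ha edgeR called 17.9% of all genes higher and 21.5% lower. Of 12 chaperones 5 were higher and 1 lower, and of 8 retinoid genes 1 was higher and 4 lower. Of 15 clock genes 1 was higher and 5 lower, and of 14 coactivators 1 was higher and 6 lower. Of 11 corepressors 2 were higher and 3 lower. Of 10 genes of steroid, thyroid hormone and vitamin D metabolism 1 was higher and 3 lower. Of 11 glucocorticoid receptor targets 2 were higher and 6 lower. Of 10 estrogen and progesterone receptor targets 3 were higher and 2 lower. LXR targets had 2 of 8 lower, PPAR targets 2 higher and 4 lower of 12, and ERR targets 3 higher and 1 lower of 9.

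Pgr lies on chromosome 9 of GRCm38 at 8899833 to 8968611, plus strand, 895 kb from Yap1, the gene named in the series title. The neighbours below were chosen after their values were seen. In experiment 2 Yap1 was at 1276 and 1249 CPM in EF, 196 and 185 CPM in ha and 1412 to 1807 CPM in hr, lowest in the group where Pgr was highest. In experiment 1 both genes were called higher in EF, Yap1 at 197 ± 18.2 CPM (SD, n = 4) against 92.6 ± 37.5 CPM in WT (n = 3; edgeR adjusted p = 0.0429). Gm16485, whose gene starts 3.18 kb beyond the end of Pgr, followed Pgr: it had no count in the EF libraries of experiment 2 and 4.76 and 25.9 CPM in ha, at least 131-fold higher, and in EF against WT its ratio was 296 with a counting interval of 52.8 to 11700. Arhgap42, 25.72 kb from Pgr, did not: in experiment 2 it averaged 154 CPM in EF and 65.0 CPM in ha. Its hr libraries were at 467 and 461 CPM in uns-1 and, near EF, at 162 and 158 CPM in uns-2. Arhgap42 was called higher in hr than in ha (edgeR adjusted p = 0.0136) and was not called in ha against EF. In ha against EF, Dcun1d5, Cfap300, Cep126 and Cntn5 were called lower, like Yap1, and Birc2, Birc3 and Mmp3 higher.

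**Figure D5:**
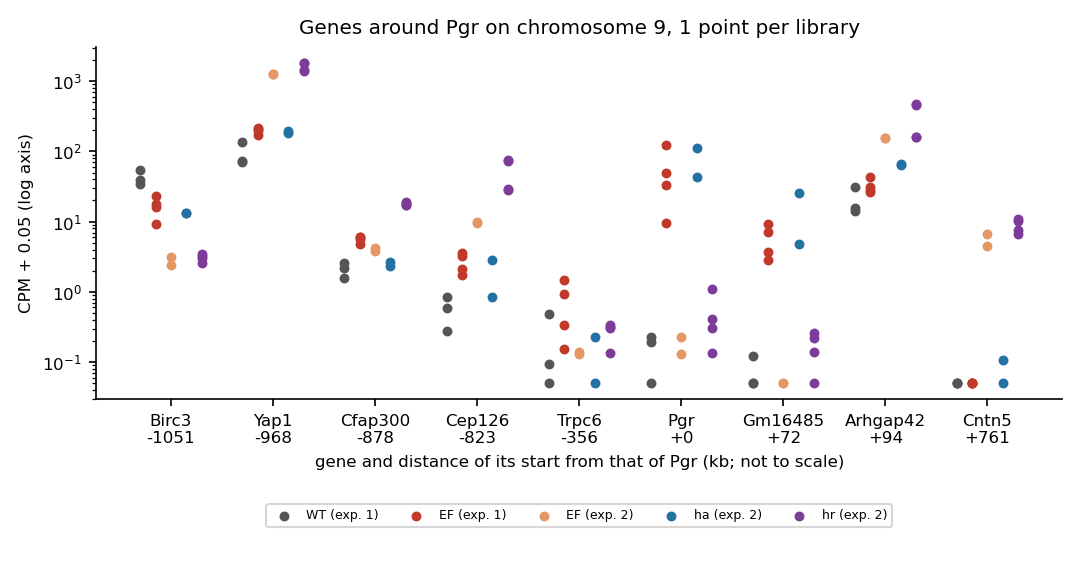
Normalised CPM plus 0.05 on a log axis for Pgr and 8 nearby genes of chromosome 9, one point per library, coloured by group; the number under each name is the distance in kb of the gene's start from that of Pgr, and spacing is not to scale. Yap1, Cep126 and Cntn5 are higher in EF and hr of experiment 2 than in ha, whereas Pgr and Gm16485 are higher in ha and in EF of experiment 1.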

How the data were processed

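The authors deposited 1 table of expected counts (RSEM estimates, of which 8.27% were not whole numbers) for 15 libraries. STAR, RSEM and the build GRCm38.p6 are named per the submitters' processing notes; versions, annotation release and strand setting: not given in the sources used here. RNA was poly(A)-selected, per the labels' protocols. The counts were rounded to whole numbers and tested within each experiment with edgeR 4.0.16 in R 4.3.3 (TMM factors, filterByExpr with a minimum count of 10, robust quasi-likelihood fit, Benjamini-Hochberg adjustment over all genes tested, threshold 0.05); the 7 and 8 libraries of each experiment shared one fit. Alternatives used DESeq2 1.42.0, limma 3.58.1, other filters, summed close libraries and libraries left out. The fit was tested on simulated data. The receptor genes and all gene lists were chosen with earlier results of these data known. A member was given in every library where it was called, its groups did not overlap and its higher group averaged at least 1 CPM, up to the 12 lowest p-values per comparison; other lists name up to 3 called genes. Positions and exonic lengths are from GENCODE M21, promoter windows from RefSeq, both on GRCm38. One symbol of the other lists (Sts) had no row. Results of some listed genes are not reported here.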

Additional observations from a re-analysis of the deposited data

Results flagged for a closer look

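Among the 28 tested members in the 4 EF libraries of experiment 1, 4 had 1 library far from the other 3, and among the 29 tested members in the 4 hr libraries 1 did. Chance alone flags about 1 in 20 such groups, and the hr libraries come in close pairs. Library EF 225 stood apart for 3 genes. Nr3c1 was at 246 CPM in EF 225 against 97.2 to 106 CPM in the other EF libraries, Rxra at 141 CPM against 71.8 to 77.2 CPM, and Rora at 175 CPM against 33.8 to 52.0 CPM. Esr1 was at 48.5 CPM in EF 229 against 32.1 to 33.8 CPM. In the hr group, Nr2f2 was at 33.6 CPM in hr uns-1-2 against 38.1 to 38.4 CPM. The summed mesenchymal stromal markers were also lowest in EF 225, at 4206 CPM against 6556 to 11180 CPM in the other EF libraries; their part in these values was not tested.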

How the results depend on the processing

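No called member changed direction in any alternative run, and each of the 4 comparisons lost calls in some. In EF against WT 7 members were called as reported, 4 with no filter on low counts, 10 with DESeq2, 6 with limma-voom and 2 to 9 when a library was left out (2 without EF 229 or WT 237, 3 without EF 221 or WT 234). In ha against EF 18 were called as reported, 8 to 18 when a library was left out and 2 with close libraries summed. In hr against EF 1 was called as reported, 0 with limma-voom, 0 with close libraries summed, 2 with only the groups compared in the fit and 0 to 1 when a library was left out. In hr against ha 21 were called as reported, 14 to 20 when a library was left out and 7 with close libraries summed. Leaving out a library or summing close libraries leaves fewer samples. Leaving out EF 221-1 or EF 221-2 leaves that group with 1 library, assumed to vary like the others. Calls that held in every alternative in which the gene was tested were Pgr and Esr1 in EF against WT, Pgr and Nr3c2 in ha against EF, and 7 members in hr against ha; Nr3c2 and Ppara of experiment 2 were tested in 15 of 16, the others named or counted here in all. Over all genes, DESeq2 called 4552 in EF against WT and 1973 in hr against EF, against 2887 and 973 with edgeR. With the last number of each title as a replicate block, 17, 0 and 19 members were called in ha against EF, hr against EF and hr against ha. Libraries with the same last number did not deviate together (correlations -0.0367, -0.0247 and -0.00343 across genes), so the numbers were not taken to pair the libraries. No paired analysis was possible in experiment 1 because its titles share no number between groups. Members that failed the filter on low counts rest on few counts and were not tested; among them in EF against WT, Rxrg had 0 counts in EF and 16 in WT (at least 9.17-fold lower against a floor of 3 counts over the group), and Esr2 had 47 in EF and 1 in WT (ratio 27.3, counting interval 4.67 to 1100). The Esr2 counts in EF 219, 221, 225 and 229 were 0, 21, 0 and 26, so EF overlapped WT and the ratio does not describe every EF library.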

Other observations

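The title number 221 occurs in both experiments, and some receptor genes were far apart between its libraries. Pgr was at 48.9 CPM in EF 221 of experiment 1 and at 0.177 and 0.0798 CPM in EF 221-1 and 221-2 of experiment 2. Rarb was at 22.6 CPM against 0.444 and 0.639 CPM, Thrb at 23.2 CPM against 2.75 and 2.55 CPM, and Rora at 49.2 CPM against 11.4 and 12 CPM. Nr3c2 was at 1.68 CPM against 0 and 0.16 CPM. Esr1 was closer, at 33.8 CPM against 20.5 and 24.4 CPM. The experiments were normalised apart and ran on different flowcells, so these values stand side by side without a test. These genes were chosen after their values were seen.

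The hr titles name 2 numbers, uns-1 and uns-2, and several receptor genes fell apart by that number. Thra was at 77.9 and 79.3 CPM in uns-1 against 40.5 and 42.0 CPM in uns-2, Rarg at 202 and 203 CPM against 150 and 148 CPM, and Nr1h2 at 58.9 and 59.3 CPM against 39.6 and 39.4 CPM. Esrra went the other way, at 14.3 and 14.6 CPM in uns-1 against 21.5 and 20.3 CPM in uns-2. Each number has a pair of libraries that differed little beyond sampling noise, so no test was made between them.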
